A study of Mus musculus with 847 samples.

Results

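The 28 genes described here carry inhibitory signalling by GABA and glycine in the mouse brain. They were taken by symbol from a list drawn up with earlier results of these data known, by a rule that uses no measured value, and all 28 were among the 21076 genes of the count table. They comprise 12 subunits of the GABAA receptor, 2 subunits of the GABAB receptor, 4 subunits of the glycine receptor, 2 GABA-synthesising enzymes, 1 vesicular transporter, 4 reuptake transporters of GABA or glycine, 1 GABA-degrading enzyme and 2 proteins of the inhibitory postsynapse.

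The study profiled tissue from 15 brain regions of 59 C57BL/6JN mice, an inbred laboratory strain with no further genotype or treatment in the labels, by bulk RNA sequencing. Mice were aged 3, 12, 15, 18, 21, 26 or 28 months. Both sexes were present from 3 to 21 months, with 5 females and 5 or 6 males at each age, whereas 26 months (5 mice) and 28 months (3 mice) held males only. The 847 libraries came to between 51 and 59 per region, and 1 library is 1 region of 1 mouse, so that regions share animals while ages do not.

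GABA is made from glutamate by the glutamate decarboxylases Gad1 and Gad2, loaded into synaptic vesicles by Slc32a1, which also loads glycine, and cleared by membrane transporters. The GABAA receptor is a chloride channel assembled from 5 subunits, and its alpha, beta, gamma, delta, epsilon and theta subunits set where the receptor sits and which drugs bind it. The GABAB receptor is a pair of G protein-coupled subunits, and the glycine receptor is a chloride channel best known from brainstem and spinal cord. Gephyrin (Gphn) anchors receptors at inhibitory synapses and Nlgn2 is an adhesion protein of the same synapses.

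Library totals lay between 481444 and 26756735 reads with a median of 6716032, and 10 libraries held fewer than 1e+06 reads. Levels are given as CPM (counts per 1000000 reads), which depend on gene length, so levels are compared between regions for 1 gene and between genes only per kilobase of exon. A library of bulk tissue cannot tell fewer cells of a type from less RNA per cell. Several libraries stood apart and matter below. In 18 of the 789 libraries outside cerebellum the cerebellar granule cell gene Cbln3 reached 5 CPM or more (8 in medulla, 6 in entorhinal cortex, 3 in posterior hippocampus and 1 in anterior hippocampus). The entorhinal cortex library of mouse 52 held brainstem genes, with Slc6a5 at 9.31 CPM and Glra1 at 14.0 CPM against medians of 0 in the other entorhinal libraries, of which the highest were at 4.97 and 8.99 CPM. In medulla, the 12 libraries of the mice numbered 48 to 59 (9 females of 3 to 21 months and the 3 males of 28 months) differed from the 46 of mice 1 to 47 in several of these genes. The choroid plexus libraries held much neuronal RNA: the summed level of 10 neuron markers was 6403 to 9088 CPM there, within the range of the other regions. The corpus callosum and subventricular zone libraries held striatal RNA in uneven amounts. The summed level of 6 striatal projection neuron markers was 904 to 6482 CPM and 305 to 5410 CPM there, against 4914 to 9353 in caudate putamen.

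The genes lie partly in clusters of the genome (GRCm38, gene models of GENCODE M21). On chromosome 5 Gabrg1, Gabra2, Gabra4 and Gabrb1 follow each other, and Gabra4 (71569749 to 71658308, minus strand) and Gabrb1 (71658113 to 72149037, plus strand) start head to head and share 46 exonic bases. Gabra6 (chromosome 11, 42306437 to 42321072, minus strand) lies 98.7 kb from Gabrb2, Gabrg3 lies 20.5 kb from Gabra5 on chromosome 7, and Gabre, Gabra3 and Gabrq (72825178 to 72842602, plus strand) lie together on the X chromosome. Slc6a9 shares 1429 exonic bases with Ccdc24 on the other strand, and the libraries were unstranded, so that reads of these 2 genes could not be told apart there.

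RefSeq promoter windows (GRCm38.p6) were found for 25 of the 28 genes. Among windows that overlap no annotated exon, the 250 bases upstream of 3 genes are shown because the highest regional median exceeds the next by the largest ratios for these genes: Gabra6, highest in cerebellum, Gabrq, highest in hypothalamus, and Slc6a5, highest in medulla (a start site within the gene). Gabre, whose ratio of 9.26 is above those of Gabrq (8.61) and Slc6a5 (7.02), has a window that overlaps an exon. Capitals mark matches, on either strand, to the 3 motifs searched, none of which contains another. One was TATAAA, a form of the element that lies near the start of some genes. Another was CCAAT, which is named for its own letters and is bound by nuclear factor Y. The last was GGGCGG, the core of the element bound by proteins of the Sp family. The Slc6a5 window holds no match to any.
Gabra6, chr11:42321073-42321322, minus strand: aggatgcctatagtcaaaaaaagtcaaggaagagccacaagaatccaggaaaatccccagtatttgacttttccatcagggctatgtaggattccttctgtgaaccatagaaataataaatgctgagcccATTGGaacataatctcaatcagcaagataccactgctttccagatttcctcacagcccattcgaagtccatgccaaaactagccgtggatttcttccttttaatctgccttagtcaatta
Gabrq, chrX:72824928-72825177, plus strand: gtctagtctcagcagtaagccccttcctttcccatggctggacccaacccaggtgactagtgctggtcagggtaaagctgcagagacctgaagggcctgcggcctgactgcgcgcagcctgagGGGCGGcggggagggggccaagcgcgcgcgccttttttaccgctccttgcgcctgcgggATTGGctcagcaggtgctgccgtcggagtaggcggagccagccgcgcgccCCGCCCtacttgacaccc
Slc6a5, chr7:49911450-49911699, plus strand: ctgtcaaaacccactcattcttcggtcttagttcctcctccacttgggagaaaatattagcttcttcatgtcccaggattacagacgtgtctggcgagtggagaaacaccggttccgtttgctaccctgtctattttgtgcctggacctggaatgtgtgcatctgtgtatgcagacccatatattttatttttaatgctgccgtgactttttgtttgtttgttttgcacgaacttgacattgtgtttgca
These windows held 2, 19 and 7 CpG dinucleotides, beside a median of 9 over the 34 windows of the 25 genes and of 6 over 32851 windows of all genes. Of all windows 12.4% held TATAAA, 33.8% CCAAT and 32.7% GGGCGG. Of the members' windows 14.7%, 35.3% and 50.0% held them. Such a match describes the letters of the window only.

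At a minimum log2 difference of 1, 23 of the 28 genes differed in at least 1 region from the mean of the others. Each region was compared with the mean of the other 14 in a joint fit of all libraries, and a gene was called where the adjusted p was below 0.05 and the log2 difference at least 1 either way. Of 420 pairs of member and region, 74 were called higher and 82 lower, 37.1% in all, against 14.2% of the pairs of all genes tested. Gabbr1, Glrb, Abat, Gphn and Nlgn2 were not called in any region: their highest median was 1.86 to 3.00 times their lowest. Smaller differences are not counted by this threshold: Gabbr1 was higher in thalamus than in caudate putamen in 57 of 58 mice. Gabrq, Slc6a5, Gabra6 and Gabre were each called in 13 or 14 regions. Gabra6 was called higher in 4 regions, although its median was 0.13 CPM or less outside cerebellum. Slc6a5 was also called higher in 4, although its level was near 0 outside medulla, pons and cerebellum. Some of the 74 higher and 82 lower calls thus compare levels near 0. The region comparison was not tested without the libraries with Cbln3 at 5 CPM or more. Hypothalamus and thalamus had the most members called higher, 9 each, beside 8.94% and 6.89% of all genes. Cerebellum had the most called lower, 12, beside 17.1% of all genes.

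**Figure D1:**
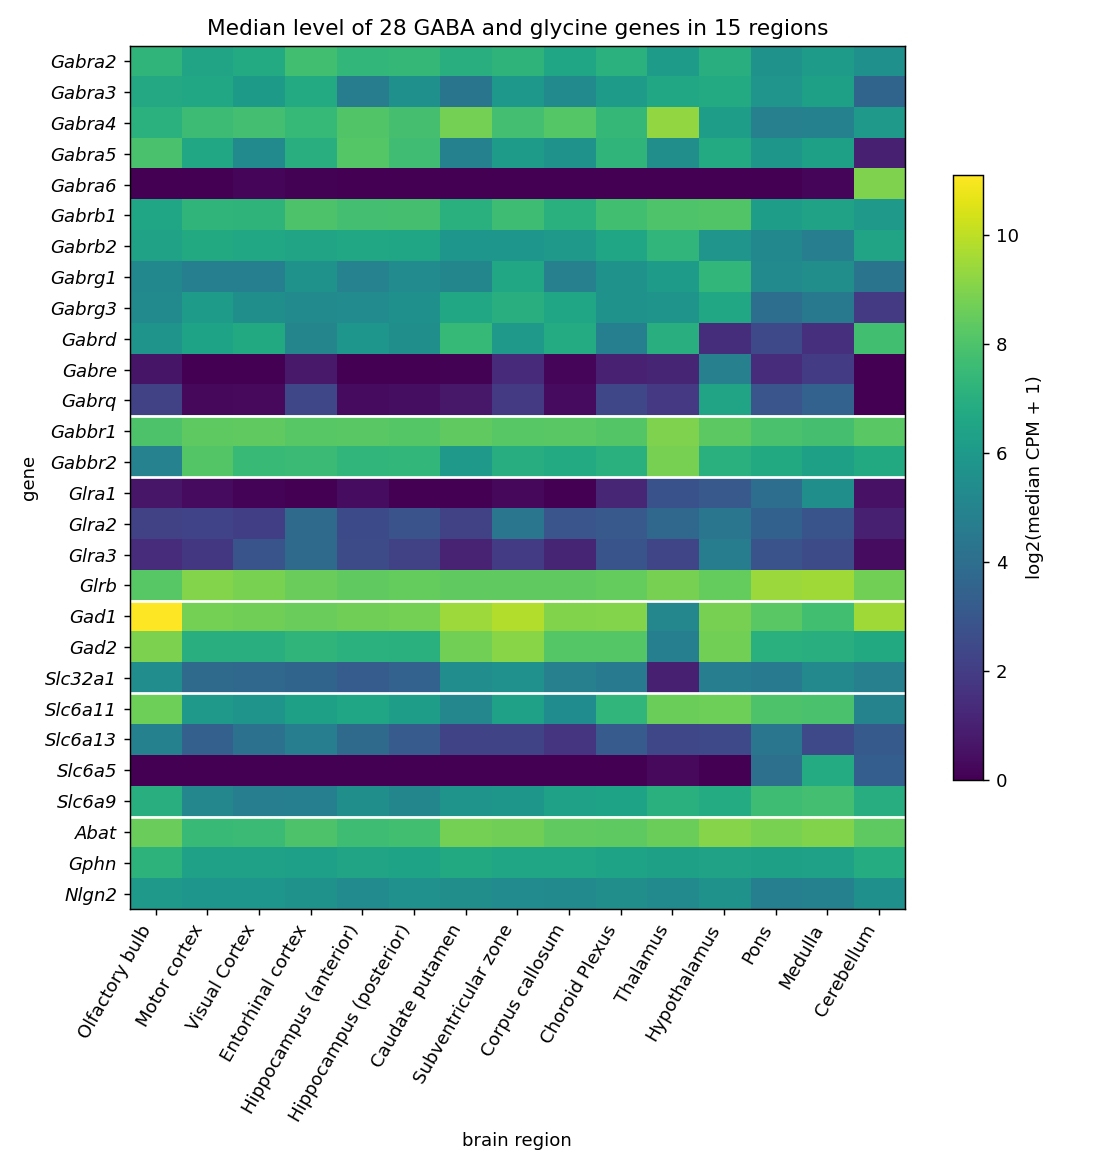
Median level of the 28 genes (rows, grouped by role with white lines between groups) in the 15 regions (columns), as log2 of the median CPM plus 1. Gabra6 stands out in cerebellum, Gabre and Gabrq in hypothalamus and Slc6a5 in medulla, while Gabbr1, Glrb, Abat, Gphn and Nlgn2 vary little.

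Among the alpha subunits of the GABAA receptor, Gabra6, the subunit of cerebellar granule cells, was the most restricted. Its level in cerebellum was 237 to 624 CPM with a median of 498.7 (58 libraries), and its median was 0.13 CPM or less in each of the other 14 regions. Cerebellum was above medulla, the next region, in 58 of 58 mice with both. The highest levels outside cerebellum were 92.2 CPM in entorhinal cortex (mouse 14, 26 months) and 52.8 CPM in posterior hippocampus (mouse 5, 26 months). Both libraries were among the 18 with Cbln3 at 5 CPM or more, at 224 and 88.7 CPM of Cbln3. In the other 771 libraries outside cerebellum Gabra6 did not exceed 2.01 CPM and 536 of them had no read of it. The plot of Gabra6 against Cbln3 shows the 2 genes side by side in each library.

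**Figure D2:**
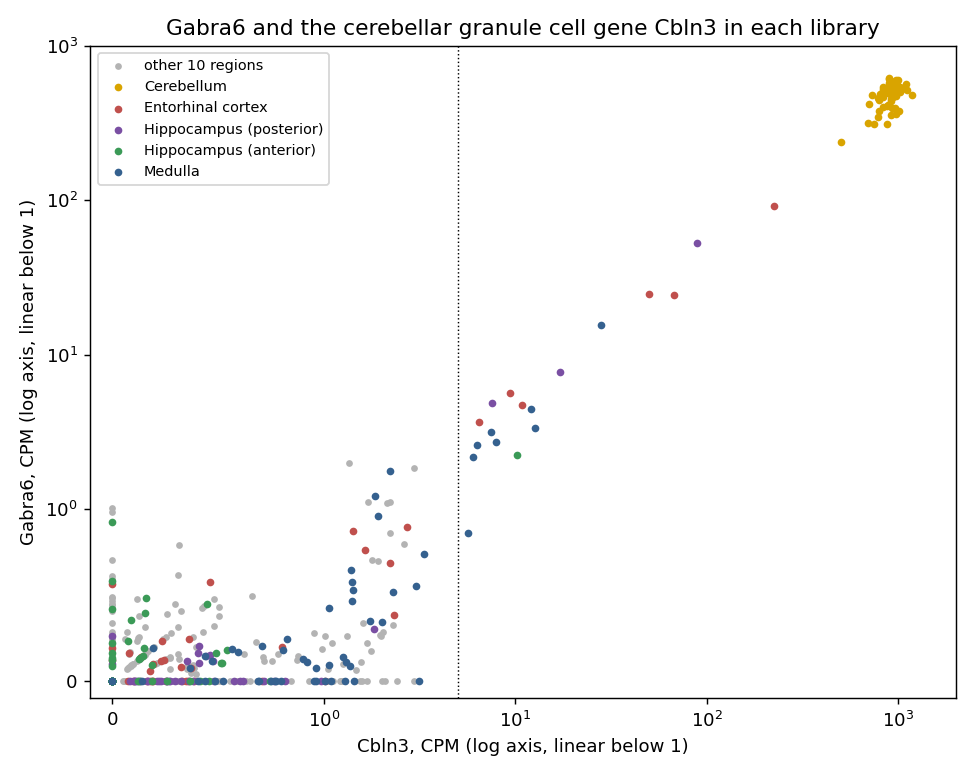
Gabra6 level against the level of the cerebellar granule cell gene Cbln3 in each of the 847 libraries, both in CPM on log axes that are linear below 1, with the dotted line at 5 CPM of Cbln3. The 18 libraries outside cerebellum to the right of the line hold every Gabra6 level above 2.01 CPM outside cerebellum.

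The other alpha subunits were spread over several regions. Gabra4, found with the delta subunit in receptors outside synapses, had its highest level in thalamus (232 to 934 CPM, median 632.0, n = 59) and its next in caudate putamen (286 to 509, median 432.7, n = 58), and thalamus was higher in 53 of 58 mice. Its lowest medians, 27.5 CPM in pons and 28.6 in medulla, lay within each other's spread. Gabra5, known from hippocampus, was highest in anterior hippocampus (221 to 417 CPM, median 285.5, n = 57), then in olfactory bulb (201 to 289, median 237.7) and posterior hippocampus (median 209.7). In cerebellum it had a median of 0.98 CPM with 4 of 58 libraries at 0. Gabra2 was highest in entorhinal cortex (median 214.6 CPM) and lowest in cerebellum (46.7). Gabra3 reached 110.3 CPM in entorhinal cortex and 108.5 in hypothalamus, which did not differ beyond their spread, and 10.9 in cerebellum.

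Of the beta subunits, Gabrb1 had medians of 267.1 CPM in hypothalamus and 266.7 in thalamus, with overlapping quartiles, and its lowest in cerebellum (63.9). Gabrb2 was highest in thalamus (159.1 CPM), above motor cortex (105.8) in 56 of 59 mice, and lowest in medulla (25.9). Gabrg1, a gamma subunit, was highest in hypothalamus (95.2 to 231 CPM, median 162.9, n = 55), above the subventricular zone (100.1) in 49 of 51 mice. Gabrg3, another gamma subunit, was highest in the subventricular zone (91.4 to 159 CPM, median 127.5), above caudate putamen (98.6) in 52 of 54 mice, and had a median of 2.73 CPM in cerebellum. Cerebellum had the lowest median of 8 of the 12 GABAA subunits: Gabra2, Gabra3, Gabra5, Gabrb1, Gabrg1, Gabrg3, Gabrq and, together with other regions at a median of 0, Gabre.

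The delta subunit Gabrd, which forms receptors outside synapses, was highest in cerebellum (143 to 261 CPM, median 213.5, n = 58), above caudate putamen (114 to 205, median 171.4) in 54 of 57 mice. It was lowest in hypothalamus (median 1.72 CPM) and medulla (1.79), with pons at 4.39. The epsilon and theta subunits were highest in hypothalamus. Gabrq (theta) was at 39.6 to 145 CPM in hypothalamus, with a median of 89.3 (n = 55), and at 4.66 to 22.9 CPM in medulla, the next region, with a median of 10.4 (n = 58). The 2 ranges did not overlap. Gabre (epsilon) was at 12.8 to 67.4 CPM in hypothalamus, with a median of 27.1, against 0.51 to 6.34 in medulla, with a median of 2.93, again with no overlap. Over the 15 regions Gabre and Gabrq, neighbours on the X chromosome, had the most similar profiles of the 378 pairs of members (Spearman's rho 0.91 and Pearson's r 0.96 of the log2 medians). Gabra3 lies between them and did not share that profile. Such similarities are descriptions over 15 regions that share mice and libraries.

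**Figure D3:**
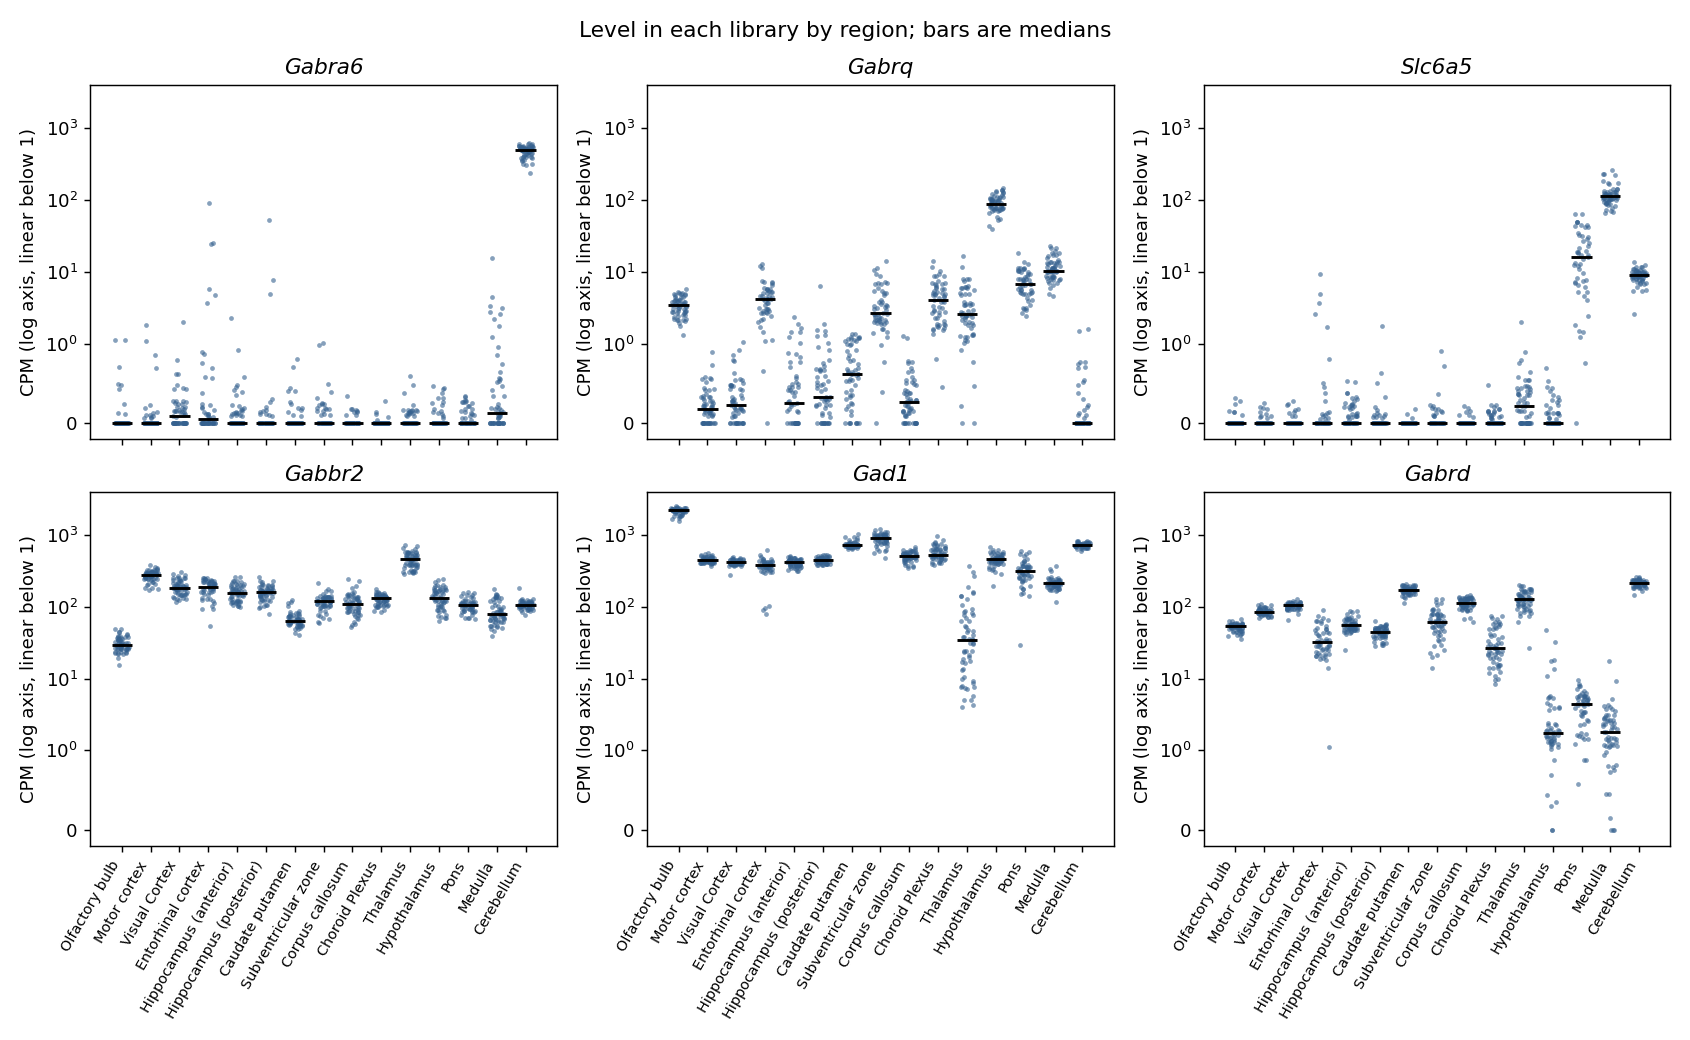
Level of 6 genes in each library (points) by region, in CPM on a log axis that is linear below 1, with the median as a bar. Gabra6, Gabrq and Slc6a5 are near 0 in most regions, Gad1 is highest in olfactory bulb and lowest in thalamus, and Gabrd is low in hypothalamus, pons and medulla.

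Both GABAB subunits were highest in thalamus. Gabbr2 was at 290 to 715 CPM there (median 457.6, n = 59), against 173 to 379 in motor cortex (median 276.8, n = 59), and thalamus was higher in 57 of 59 mice. Its lowest region was olfactory bulb, at 15.5 to 49.5 CPM (median 29.2, n = 58), below every thalamus and motor cortex library. Gabbr1 varied less, from a median of 501.3 CPM in thalamus to 223.1 in medulla. Per kilobase of exon the 2 subunits were near each other in thalamus, at 64.6 CPM per kb for Gabbr1 and 68.4 for Gabbr2. In olfactory bulb Gabbr1 was at 32.8 CPM per kb and Gabbr2 at 4.37.

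The glycine receptor subunits differed among themselves. Glra1, the alpha subunit of the adult receptor of brainstem and spinal cord, was at 26.7 to 56.0 CPM in medulla (median 45.1, n = 58), 4.63 to 32.9 in pons (median 14.9, n = 51) and 3.76 to 13.2 in hypothalamus (median 7.70, n = 55). Medulla was above pons in 51 of 51 mice. Glra2, an alpha subunit known from the developing brain, was as high in the subventricular zone (median 19.6 CPM) as in hypothalamus (19.4), and the former was higher in 25 of 51 mice. Glra3 was highest in hypothalamus (24.1 CPM), above entorhinal cortex (13.3) in 44 of 47 mice. The shared beta subunit Glrb, which binds gephyrin, was high throughout, from a median of 300.9 CPM in olfactory bulb to 691.4 in pons and 723.5 in medulla. Per kilobase of exon Glrb exceeded the 3 alpha subunits together in every region: in medulla it was at 155.4 CPM per kb, against 18.7 for Glra1, 2.05 for Glra2 and 0.54 for Glra3.

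The genes of GABA synthesis and vesicular loading all had their lowest median in thalamus. Gad1 was at 1577 to 2541 CPM in olfactory bulb (median 2198, n = 58) and at 476 to 1221 in the subventricular zone (median 908.6, n = 55), with no overlap, and at 3.98 to 375 CPM in thalamus (median 34.1, n = 59). Gad2 was highest in the subventricular zone (median 564.1 CPM) and olfactory bulb (482.6), whose quartiles overlapped, and lowest in thalamus (26.5). The vesicular transporter Slc32a1 was highest in the subventricular zone (median 47.5 CPM), caudate putamen (42.8) and olfactory bulb (41.9), and lowest in thalamus (0.96, with 7 of 59 libraries at 0). Cerebellum departed from this order: Gad1 was the third highest there (722.7 CPM), and Gad2 was at 107.1 CPM, below 13 of the 14 other regions. Thalamus was low in all 3 genes of the GABA-releasing cell while it was highest in Gabra4, Gabrb2, Gabbr1 and Gabbr2.

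The reuptake transporters differed in where they were highest. Slc6a11, the GABA transporter GAT-3 of astrocytes, was at medians of 407.3 CPM in hypothalamus, 404.5 in olfactory bulb and 385.6 in thalamus, and at 30.1 in cerebellum. Slc6a13, the transporter GAT-2 known from meninges and liver, did not exceed a median of 28.1 CPM (olfactory bulb). Slc6a5, the neuronal glycine transporter GlyT2, was at 65.8 to 262 CPM in medulla (median 113.1, n = 58) and at 0 to 64.0 in pons (median 16.1, n = 51). It was at 2.61 to 13.6 in cerebellum (median 9.01, n = 58), and at a median of 0.22 CPM or less in the other 12 regions. Medulla was above pons in 51 of 51 mice. Slc6a9, the glial glycine transporter GlyT1, had its highest medians in medulla (222.0 CPM) and pons (203.2) and its lowest in visual cortex (25.9). Abat, the GABA transaminase that breaks GABA down, was at 543.5 CPM in hypothalamus and 517.4 in medulla, higher in the former in 27 of 54 mice, and at 181.1 in motor cortex. Gphn and Nlgn2 were both highest in olfactory bulb (143.0 and 61.3 CPM).

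Age was tested as a slope in months, in each region alone and with sex in the model, over every gene that passed the filter on low counts. Of the 420 pairs of member and region 377 passed. Over these 377, 10 rose with age and 27 fell, in 21 of the 28 genes. Of all genes, 6.37% of the pairs rose and 5.1% fell, 11.5% together, so that the 9.81% of the members' pairs that were called is near the share of all genes. A gene passed in a region only with enough reads there, and Gabra6 and Slc6a5 were tested in 4 regions each, Gabre in 7, Glra1 in 8 and Gabrq in 9. By edgeR no member was called in entorhinal cortex, where 0.186% of all genes rose and 0.0413% fell, or in visual cortex (5.8% and 4.94%). DESeq2 called none there either, and 6 of 28 and 1 of 23 members had an unadjusted p below 0.05. Olfactory bulb had 6 of the 10 rising pairs, and cerebellum 7 of the 27 falling pairs, among 26 members tested, beside 8.41% of all genes falling there.

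**Figure D4:**
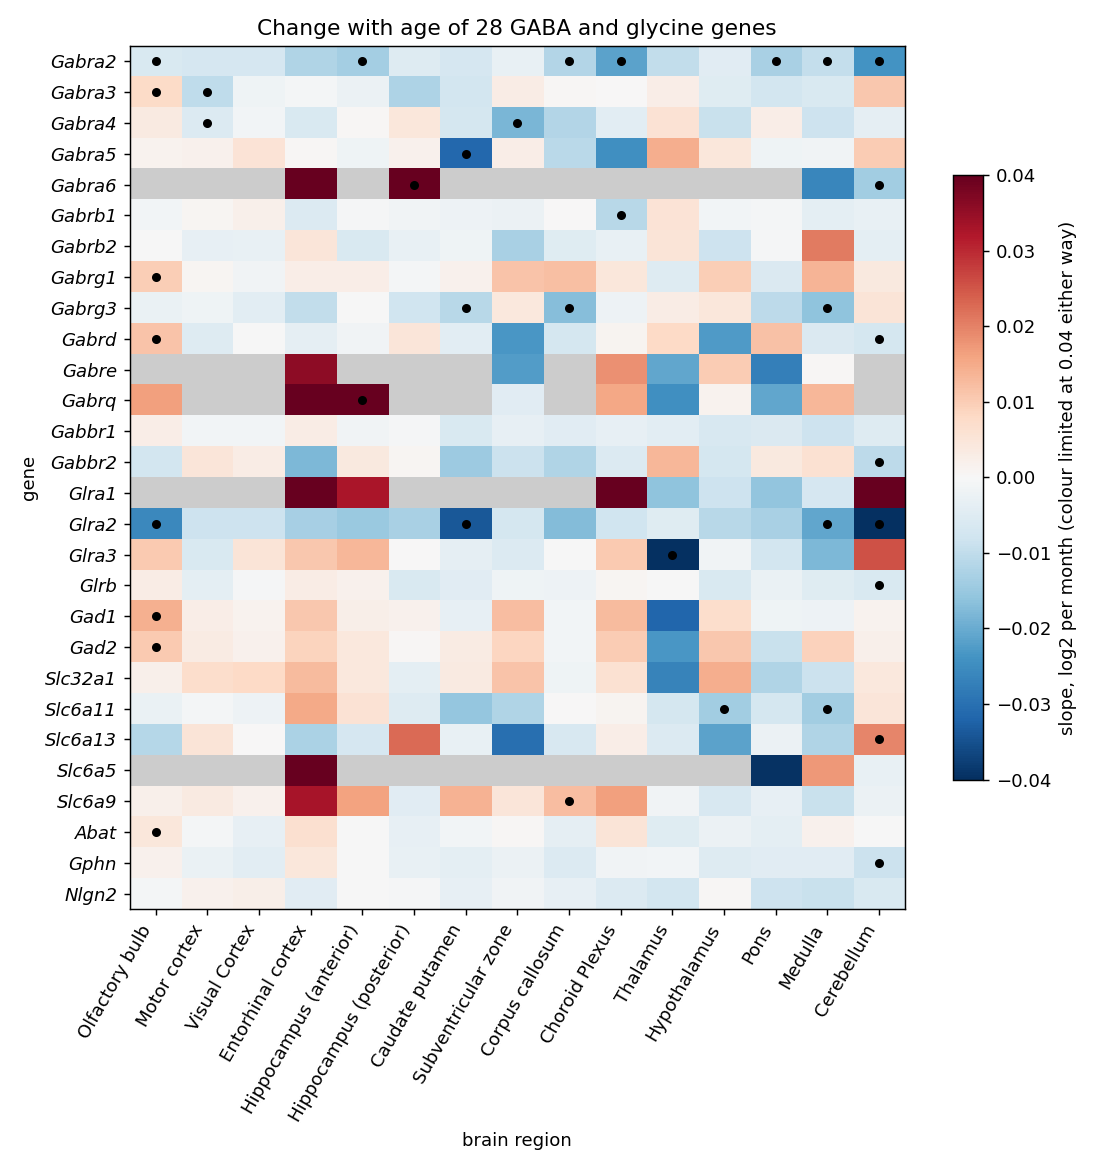
Slope with age of each gene (rows) in each region (columns), in log2 per month, red for rising and blue for falling with the colour limited at 0.04 either way; black points mark adjusted p below 0.05 and grey cells were not tested. Gabra2 is blue in all 15 regions with 7 points, and olfactory bulb holds 6 of the 10 rising points.

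Gabra2, an alpha subunit of forebrain synapses, fell in 7 regions (cerebellum, anterior hippocampus, corpus callosum, choroid plexus, pons, medulla and olfactory bulb), and its slope was negative in all 15. In cerebellum it was at 43.5 to 64.5 CPM at 3 months (median 61.1, n = 10), at 34.8 to 50.1 at 18 months (median 45.8, n = 10) and at 33.3, 41.5 and 42.4 CPM at 28 months. The 28-month levels lay below all 10 of 3 months. The slope was -0.0239 log2 per month (SE 0.00233, adjusted p = 2.11e-12, edgeR's quasi-likelihood test here and for every slope below), a fitted 0.661-fold over the 25 months from 3 to 28. At 12 months it was already lower than at 3 months (log2 difference -0.25, SE 0.0598, adjusted p = 0.0105).

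In anterior hippocampus Gabra2 was at 155 to 200 CPM at 3 months (median 169, n = 10) and at 120, 135 and 158 at 28 months, so that 1 library of 28 months lay in the range of 3 months (slope -0.0137, SE 0.00282, adjusted p = 0.000493). In choroid plexus it was at 74.98 to 216 CPM at 3 months (median 174, n = 10) and at 98.9, 115 and 136 at 28 months, within the range of 3 months (slope -0.0215, SE 0.00751, adjusted p = 0.034). Of the 10 neuron markers 5 fell and 0 rose with age in choroid plexus. With the mean log level of those markers in the model the slope of Gabra2 there was 0.00059 (adjusted p = 0.969). Gabrb1, a beta subunit and the other member that fell in choroid plexus, had a slope of -0.0111 (SE 0.00399, adjusted p = 0.0393), and of 0.00176 (adjusted p = 0.723) with the markers in the model. In corpus callosum, pons, medulla and olfactory bulb the slopes of Gabra2 were -0.0116, -0.013, -0.00957 and -0.00612.

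Other alpha subunits fell in 1 or 2 regions. Gabra5 in caudate putamen was at 30.7 to 65.6 CPM at 3 months (median 37.3, n = 9) and at 18.1, 24.4 and 25.5 at 28 months, below every 3-month library (slope -0.0314, SE 0.00564, adjusted p = 5.02e-05, a fitted 0.58-fold over 25 months). It was lower than at 3 months at 15, 18, 21, 26 and 28 months. With the neuron markers in the model, 2 of which fell there, its slope was -0.0177 (adjusted p = 0.00457). Of the 6 excitatory neuron markers 1 fell in caudate putamen and 0 rose (median slope -0.0549). Slc17a7, 1 of the 6, was at 0.272 to 196 CPM there (median 2.17), and the part of these markers in the result was not tested. Gabra4 in the subventricular zone was at 175 to 302 CPM at 3 months (median 241, n = 10) and at 166, 181 and 219 at 28 months, with overlap (slope -0.0181, SE 0.00547, adjusted p = 0.0267). The summed level of the 6 striatal projection neuron markers varied from 305 to 5410 CPM there. Of these markers 0 rose and 0 fell with age (median slope -0.0149), and their part in the result was not tested. Gabra4 and Gabra3 also fell in motor cortex, with slopes of -0.00535 (adjusted p = 0.00855) and -0.0103 (adjusted p = 7.21e-05). Gabra6 in cerebellum was at 498 to 624 CPM at 3 months (median 554, n = 10) and at 438, 478 and 506 at 28 months, with 1 library in the range of 3 months (slope -0.0138, SE 0.0041, adjusted p = 0.0119). Its lowest level, 237 CPM, was at 18 months. In cerebellum 1 of the 5 granule cell markers (Neurod1) and 1 of the 4 Purkinje cell markers (Car8) also fell and none of either list rose. Of the 10 neuron markers 2 fell there (Map2 and Snap25) and 0 rose, 4 of the 5 microglia markers rose, and of the 7 astrocyte markers 2 rose and 1 fell. With the neuron markers in the model Gabra6 (adjusted p = 0.0679) was no longer called in cerebellum, nor were Gabrd (0.0881) and Gabbr2 (0.0537), and the part of the other cell types was not tested.

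**Figure D5:**
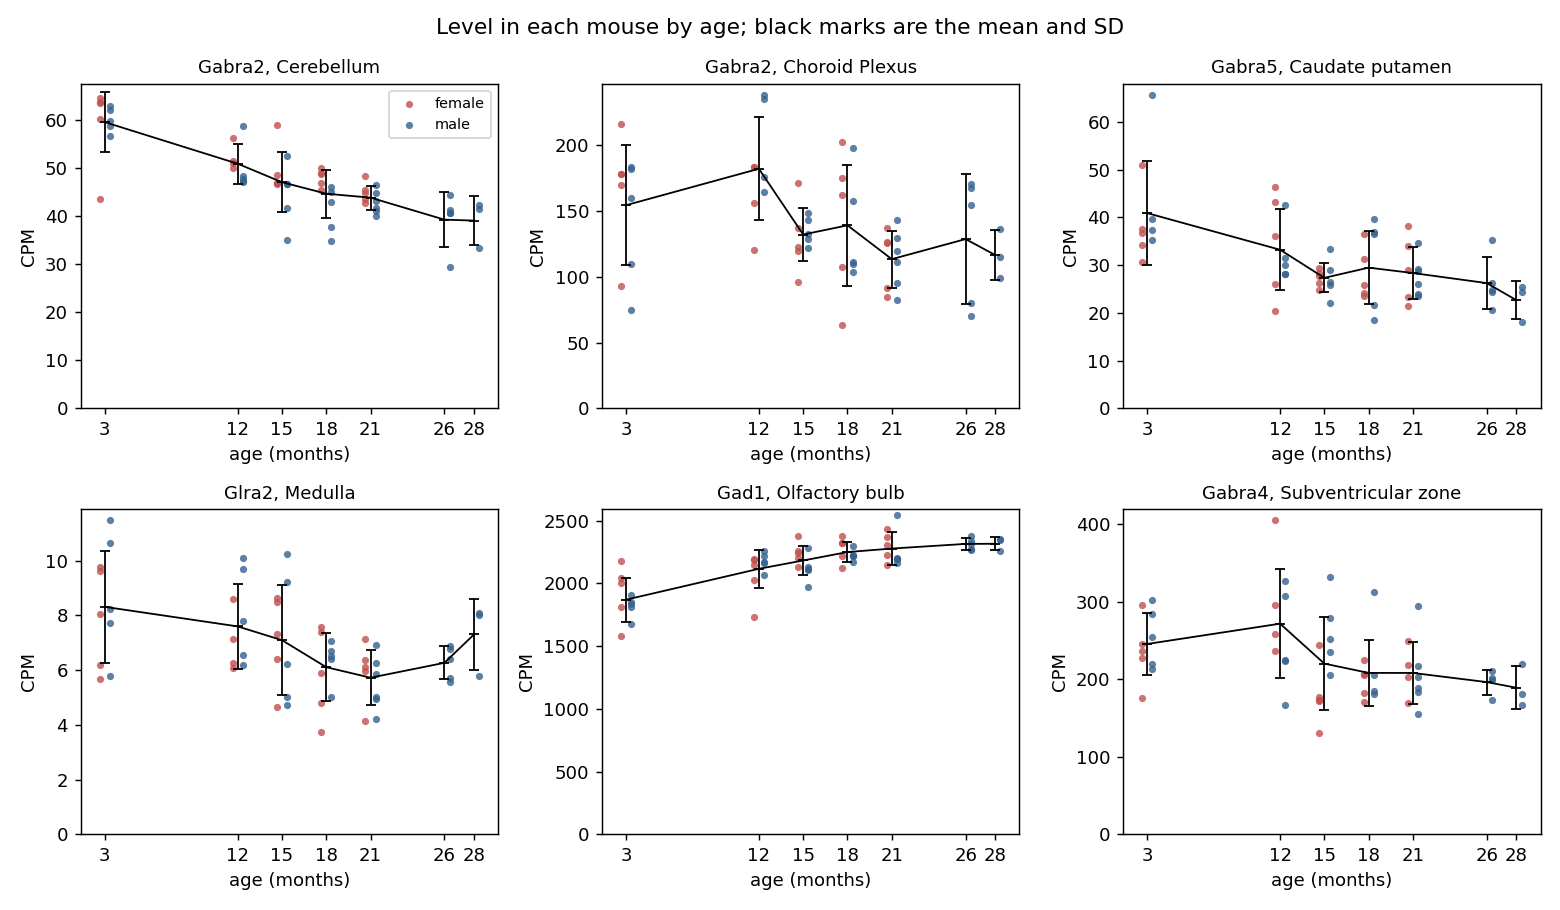
Level in CPM of 5 genes in 6 pairs of gene and region by age in months, 1 point per mouse (red, female; blue, male), with the mean and SD of each age in black. Gad1 in olfactory bulb rises, and Gabra2 in cerebellum and Gabra5 in caudate putamen fall with the 28-month mice below all 3-month mice.

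Of the gamma subunits, Gabrg3 fell in corpus callosum, caudate putamen and medulla. In corpus callosum, a white matter tract, it was at 84.1 to 126 CPM at 3 months (median 109, n = 10) and at 75.5, 83.3 and 86.0 at 28 months, with 1 library in the earlier range (slope -0.0171, SE 0.00274, adjusted p = 3.02e-06). The striatal marker Drd1 had a median of 104 CPM in corpus callosum, against 122 in caudate putamen, and Drd2 one of 341 against 541. The summed level of the 6 striatal projection neuron markers had medians of 4304 and 7828 CPM. Of the 6 striatal projection neuron markers 0 rose and 0 fell with age in corpus callosum (median slope -0.0119), and their part in the result was not tested. In caudate putamen the slope of Gabrg3 was -0.0112 (adjusted p = 0.0451), and -0.0017 (adjusted p = 0.781) with the neuron markers in the model. The delta subunit Gabrd fell in cerebellum (slope -0.00701, SE 0.00243, adjusted p = 0.0334) and rose in olfactory bulb. The GABAB subunit Gabbr2 fell in cerebellum as well (slope -0.0104, SE 0.00311, adjusted p = 0.0131).

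Glra2 fell in 4 regions (caudate putamen, cerebellum, medulla and olfactory bulb) and its slope was negative in all 15. In caudate putamen and olfactory bulb it averaged 3.82 and 3.67 CPM and its slopes were -0.034 (adjusted p = 0.00868) and -0.0256 (adjusted p = 0.00143). In cerebellum it averaged 1.33 CPM. Glra3 fell in thalamus, where it was at 1.72 to 11.9 CPM at 3 months (median 4.48, n = 10) and at 1.03, 2.65 and 3.67 at 28 months, with overlap (slope -0.0588, SE 0.0165, adjusted p = 0.0233).

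The enzymes of GABA synthesis rose in olfactory bulb. Gad1 was at 1577 to 2181 CPM at 3 months (median 1844, n = 10), at 1972 to 2380 at 15 months (median 2168, n = 10) and at 2255, 2342 and 2350 at 28 months, above every 3-month library (slope 0.0142, SE 0.00171, adjusted p = 5.8e-09, a fitted 1.28-fold over 25 months). Gad2 was at 398 to 465 CPM at 3 months (median 425, n = 10) and at 482, 503 and 543 at 28 months, again with no overlap (slope 0.0104, SE 0.00151, adjusted p = 7.79e-07). Both genes were higher than at 3 months at each of the 6 later ages. With the neuron markers in the model their slopes were 0.0127 and 0.0095.

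Gabrd was at 38.9 to 55.2 CPM in olfactory bulb at 3 months (median 44.4, n = 10) and at 54.2, 56.5 and 57.9 at 28 months (slope 0.0115, SE 0.00252, adjusted p = 0.000736), and Gabra3 rose there too (slope 0.00752, adjusted p = 0.00381). So did Abat (slope 0.00456, adjusted p = 0.0224) and Gabrg1 (slope 0.00992, adjusted p = 0.0302). These 6 of 24 members stand beside 7.78% of all genes rising in olfactory bulb, and the 2 members that fell, Gabra2 and Glra2, beside 9.01%. Slc32a1 had a slope of 0.00214 there (adjusted p = 0.603). Of the 6 interneuron markers tested in olfactory bulb 3 rose (Vip, Pvalb and Lamp5) and 0 fell. Of the 10 neuron markers 3 rose (Snap25, Syt1 and Rbfox1) and 2 fell (Stmn2 and Tubb3), and of the 4 neuroblast markers 1 fell (Sox11). The part of these cell types in the result was not tested beyond the fit with the neuron markers.

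Among transporters Slc6a11 in hypothalamus was at 362 to 533 CPM at 3 months (median 476, n = 9), at 320 to 438 at 21 months (median 372, n = 11) and at 415 and 420 at 28 months (slope -0.0139, SE 0.00264, adjusted p = 0.000269). Slc6a9 rose in corpus callosum, from 50.9 to 88.3 CPM at 3 months (median 71.0, n = 10) to 82.7, 89.8 and 109 at 28 months, with overlap and with the shared exon given above (slope 0.0124, SE 0.00351, adjusted p = 0.00812). In corpus callosum 4 of 7 astrocyte, 4 of 5 microglia and 2 of 6 oligodendrocyte markers also rose and none of these fell, and their part in the result was not tested. Slc6a13 rose in cerebellum, from 4.34 to 8.68 CPM at 3 months (median 6.27, n = 10) to 8.17, 8.92 and 9.52 at 28 months, with overlap (slope 0.0194, SE 0.00687, adjusted p = 0.0378). Of the 6 pericyte and fibroblast markers 1 rose there (Lum, slope 0.0345) and 0 fell, and their part in the result was not tested. The postsynaptic scaffold Gphn (slope -0.00867, adjusted p = 3.6e-06) and Glrb (slope -0.00612, adjusted p = 0.012) fell in cerebellum. Gabrb2, Gabre, Gabbr1, Glra1, Slc32a1, Slc6a5 and Nlgn2 passed the threshold in none of the regions where they were tested. By edgeR 16 of their 79 pairs had an unadjusted p below 0.05, and DESeq2 called 0.

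Several of these calls were lost without single mice or without libraries that stand apart. A lost call is an adjusted p that crossed 0.05, and the slope did not always change much. For Slc6a13 in cerebellum it was 0.0182 to 0.0189 in the fits without a call, against 0.0194 with all mice. Gabrq in anterior hippocampus went from 0.0643 to 0.0457 without mouse 57. Among the 14 mice left out in turn, the call was lost without 1 to 9 of them for 17 of the 37 pairs, with adjusted p from 0.0502 to 0.203. It was lost without mouse 17, 33 or 41 for Gabra2 in choroid plexus (adjusted p 0.0638 to 0.0721), without 4 mice for Gabrb1 there (up to 0.0772) and without mouse 41 or 57 for Gabra2 in corpus callosum (0.0542 and 0.0715). Gabra2 lost its call without 7 mice each in medulla and olfactory bulb (up to 0.1 and 0.133) and without 4 in pons (up to 0.0924). Gabrg3 in caudate putamen lost it without 5 mice (up to 0.0895), Gabrd in cerebellum without 3 (up to 0.073), Slc6a13 in cerebellum without 5 (up to 0.0627) and Glra3 in thalamus without mouse 33 or 41 (0.0753 and 0.0627). Abat and Gabrg1 in olfactory bulb lost it without mouse 17 (0.054) and mouse 41 (0.0589), and Glra2 in cerebellum without mouse 33 (0.0559).

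Other calls were lost with another model. With the neuron markers as a covariate the 2 pairs of choroid plexus changed sign and were not called (adjusted p = 0.969 and 0.723). Of the 37 pairs 11 more lost their call. Besides the pairs named with that fit above, these were Gabra4 in motor cortex (adjusted p = 0.0687), Glra2 in caudate putamen (0.193), Gabrg1 in olfactory bulb (0.0736), Gabrq in anterior hippocampus (0.102), and in medulla Gabra2 (0.0813), Gabrg3 (0.205) and Slc6a11 (0.0574). In DESeq2 4 pairs lost it: Gabrg1 in olfactory bulb (0.0591), Gabrq in anterior hippocampus (0.222), Glra2 in cerebellum (0.0862) and Glra3 in thalamus (0.0616).

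The other 2 rising pairs were of genes near 0 in their region. Gabra6 in posterior hippocampus had a slope of 0.365 (SE 0.0683, adjusted p = 0.000168) at a mean of 1.16 CPM, and the library of mouse 5, at 52.8 CPM, is one of those with Cbln3 above 5 CPM. Without the 18 libraries with Cbln3 at 5 CPM or more, Gabra6 did not pass the filter there. Gabrq in anterior hippocampus rose at a mean of 0.421 CPM (slope 0.0643, SE 0.0221, adjusted p = 0.0439), and lost its call without 5 mice (adjusted p up to 0.203).

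In medulla the libraries of mice 48 to 59 bear on each comparison. Gabrb2 was at 27.5 to 69.7 CPM in these 12 libraries (median 57.1) and at 14.2 to 35.8 in the other 46 (median 24.1). Gabbr2 was at 120 to 177 CPM (median 137) against 38.5 to 127 (median 72.1), and Abat at 631 to 733 (median 672) against 237 to 647 (median 507). The 10 highest medulla libraries of each of these 3 genes were all among the 12. Slc6a11 was lower in the 12, at 130 to 229 CPM (median 169) against 148 to 323 (median 246). All 3 medulla libraries of 28 months are among the 12.

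Of the 4 members that fell with age in medulla, Glra2 and Gabra2 kept their call without these 12 libraries. Glra2 was at 5.67 to 11.5 CPM at 3 months (median 8.14, n = 10), at 4.14 to 7.13 at 21 months (median 5.98, n = 11) and at 5.80, 8.00 and 8.11 at 28 months, where it overlapped with 3 months. Its slope was -0.0209 (SE 0.00534, adjusted p = 0.00514) with all libraries and -0.0304 (adjusted p = 0.000383) without the 12, and its call was lost without mouse 33 (adjusted p = 0.0653). Gabra2 had a slope of -0.0107 (adjusted p = 0.0318) without the 12. Gabrg3 was at 18.8 to 30.3 CPM at 3 months (median 23.7, n = 10) and at 17.6, 18.4 and 23.2 at 28 months. Its slope was -0.0162 (SE 0.00533, adjusted p = 0.0385), and -0.0161 (adjusted p = 0.132) without the 12. Slc6a11 was at 177 to 272 CPM at 3 months (median 238, n = 10), at 217 to 279 at 26 months (median 251, n = 5) and at 152, 152 and 161 at 28 months. Its slope of -0.0141 (SE 0.00483, adjusted p = 0.0483) became -0.00611 (adjusted p = 0.434) without the 12. Gabrg3 also lost its call without 5 single mice (up to 0.113) and Slc6a11 without 9 (up to 0.107).

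Each later age was also compared with 3 months, and these comparisons share the 3-month libraries. Over the 377 pairs 5 were higher and 7 lower at 12 months (background 1.76% of all pairs), 4 and 5 at 15 months (1.28%), and 4 and 9 at 18 months (2.87%). At 21 months 8 were higher and 17 lower (6.99%), at 26 months 4 and 10 (4.32%) and at 28 months 9 and 14 (6.34%). At 28 months 10 of the 23 calls were in medulla, where 24.8% of all genes were called and where each 28-month library is among those of mice 48 to 59. The smallest adjusted p there were those of Slc6a9 (log2 difference -0.67, adjusted p = 0.000359), Slc6a11 (-0.77, adjusted p = 0.00037) and Gabrb2 (1.19, adjusted p = 0.00119). No 28-month medulla library remains without those mice. In entorhinal cortex Gabra6 was called at 26 months (log2 difference 8.04), with 3 libraries at 0.235, 24.3 and 92.2 CPM, and the 2 higher ones hold Cbln3 above 5 CPM. Glra1 was called there at 21 months (6.52) with a median of 0 over 11 libraries, the highest being that of mouse 52 at 14.0 CPM. These 2 calls were not tested without those libraries.

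Whether the slope of a gene differed between regions was tested in 1 fit of all libraries. By an F test of the age by region terms 8 of the 28 members differed, beside 18.9% of all genes tested: Gabra6, Glra1, Slc6a5, Glra3, Slc6a9, Gabrq, Gphn and Gabrg3. With the mouse number as a block 8 passed as well, beside 19.9% of all genes. For Gabra6 the adjusted p was 5.22e-26, and 0.42 without the libraries with Cbln3 at 5 CPM or more and that of entorhinal mouse 52. Without those libraries 10 members passed, with Gabra2 (adjusted p = 0.00555), Gabra5 (0.0408) and Gabbr1 (0.0122) added. In males alone, with those libraries kept, 2 members passed: Gabra6 (adjusted p = 4.27e-10) and Gabrb2 (0.00738), which was not among the 8.

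Each region's slope was then set against the mean slope of the other 14. Of the 420 pairs 8 passed, beside 1.31% of all pairs. Gabra5 fell more in caudate putamen (difference of slopes -0.0336, SE 0.00885, adjusted p = 0.0336), Gabra2 in cerebellum (-0.0161, SE 0.0047, adjusted p = 0.038) and Glra3 in thalamus (-0.056, SE 0.01, adjusted p = 2.23e-05). Without the libraries named above these 3 differences were -0.0339 (adjusted p = 0.0306), -0.0164 (0.0238) and -0.056. The other 5 were Slc6a9, Slc6a5, Gabra6 and Glra1 in entorhinal cortex and Gabra6 in posterior hippocampus, and none of the 5 passed without those libraries. Gabrb1 and Glra1 in choroid plexus and Gabrb2 and Gabbr1 in medulla then passed. That fit kept the medulla libraries of mice 48 to 59, in which Gabrb2 had a median of 57.1 CPM against 24.1 in the other medulla libraries. The 2 medulla differences were not tested without them. In choroid plexus alone the slope of Gabrb1 was 0.00176 (adjusted p = 0.723) with the neuron markers in the model. The slopes of Gad1 and Gad2 were not shown to differ between regions (adjusted p = 0.635 and 0.728), although they were called in olfactory bulb alone.

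Females and males were compared at 3 to 21 months. Over all regions 16 pairs of member and region passed, beside 3.01% of all pairs. Medulla held 9, beside 24.6% of all genes there, but its 12 libraries of mice 48 to 59 include 9 females and no male of these ages. Without them none of the 9 passed in edgeR, and 5 of the 28 members there had an unadjusted p below 0.05. Gabrg1, lower in males in medulla (58.6 CPM ± 21.4 SD in 24 females and 40.1 ± 9.28 in 26 males, log2 difference -0.56, adjusted p = 0.000209), was then at -0.38 (adjusted p = 0.099), and Gabrb2 went from -0.59 (adjusted p = 0.000843) to -0.12 (adjusted p = 0.536).

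The other 7 pairs lay in 4 regions. In hypothalamus 3 passed, beside 5.43% of all genes. Abat was at 573.1 CPM ± 34.2 SD in 24 females and 513.0 ± 44.7 in 25 males (log2 difference -0.15, SE 0.0269, adjusted p = 0.000301), Gabra5 at 94.3 ± 18.3 and 129.4 ± 35.3 (0.45, SE 0.0959, adjusted p = 0.00293) and Gabrb1 at 250.1 ± 22.5 and 274.4 ± 23.5 (0.13, SE 0.0372, adjusted p = 0.0277). Gabbr2 was higher in males in olfactory bulb (27.7 ± 5.84 in 25 females and 34.5 ± 6.37 in 25 males, log2 difference 0.31, adjusted p = 0.0102), posterior hippocampus (0.30, adjusted p = 0.0317) and choroid plexus (0.21, adjusted p = 0.0404). Slc6a9 was lower in males in posterior hippocampus (-0.30, adjusted p = 0.0438). Both calls in posterior hippocampus were lost with mice 16 to 56 alone (adjusted p = 0.104 for Gabbr2 and 0.191 for Slc6a9). At 3, 15, 18 and 21 months all females carry higher mouse numbers than all males. With the 12-month mice alone edgeR called 0 of 358 pairs, and 54 had an unadjusted p below 0.05.

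Of 43 further genes of inhibitory signalling that are no members, 39 passed the filter in at least 1 region. Over their 551 pairs of gene and region 35 rose and 41 fell with age, 13.8% in all, beside 11.5% of all genes. Slc6a6, which carries taurine and beta-alanine, rose in 14 of 15 regions, with slopes from 0.00855 in cerebellum to 0.016 in pons (adjusted p = 0.000984 in pons). Nlgn3 and Slitrk3, adhesion proteins of synapses, each fell in 7 regions, Slitrk3 most in the subventricular zone (slope -0.0268, SE 0.00508, adjusted p = 0.000202). Mdga1, which binds neuroligins and limits their contacts, fell in 5 regions, and its steepest slope was in choroid plexus (-0.0305, SE 0.00996, adjusted p = 0.0236).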

How the data were processed

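Per the labels' protocols, RNA was extracted with RNeasy columns, and libraries were made from Smart-Seq2 cDNA with Nextera XT, which keeps no strand. The deposited values are raw read counts per gene, as the authors counted them. Trim Galore 0.3.7, STAR 2.5.3a, DESeq2 and GRCm38 are named in the submitters' processing notes, while the counting tool and annotation are not given in the sources used here. Columns were matched to samples by label, and the labels' mouse number pairs regions of 1 animal. Nothing beyond that number describes a batch.

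Genes passing filterByExpr were tested in edgeR 4.0.16 (R 4.3.3) by the quasi-likelihood test with TMM factors, in each region with age in months and sex, or jointly over regions with age and sex. P-values were adjusted by Benjamini-Hochberg over all genes tested in a fit, with a threshold of 0.05, and adjusted p in the text come from these fits. Levels are CPM of the library total. Values by age are given for the called pairs with the largest slopes, at most 12 in each direction, at a mean of 5 CPM or more. The members and lists were chosen with earlier results of these data known. Alternatives used DESeq2 1.42.0, RLE factors, no filter, subsets of mice, covariates and left-out mice. Leaving out mice 33 and 41, the libraries with cerebellar RNA and the medulla libraries of mice 48 to 59 was chosen after seeing the data. In data simulated for corpus callosum (14291 genes), all genes had the same dispersion and the changed genes lay above 5 CPM. Slopes of 0.03 either way were then called for 86% to 90% of changed genes and slopes of 0.015 for 14% to 20%. These shares do not carry over to genes of another spread or level, or to other regions. In olfactory bulb, Gad1 and Gad2 were called at slopes of 0.0142 and 0.0104.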

Additional observations from a re-analysis of the deposited data

Results flagged for a closer look

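In 6 of the 107 groups of 4 to 10 libraries examined for the described pairs, 1 library lay far from the others of its age and region. Chance alone flags about 1 in 20 groups. In olfactory bulb at 12 months Gad1 was at 1730 CPM in mouse 1 against 2030 to 2250 in the other 9, and Gabrd at 35.5 CPM in mouse 13 against 49.0 to 55.4. At 3 months Gabrg1 was at 49.3 CPM in mouse 37 in olfactory bulb against 23.9 to 37.1. In cerebellum Gabra2 was at 43.5 CPM in mouse 53 at 3 months against 56.6 to 64.5, and at 29.4 CPM in mouse 8 at 26 months against 40.7 to 44.4. In the subventricular zone Gabra4 was at 312 CPM in mouse 35 at 18 months against 170 to 225.

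The age slope differed between regions for 8 members by the F test of the joint edgeR fit. The adjusted p was 5.22e-26 for Gabra6, 8.39e-09 for Glra1, 2.82e-05 for Slc6a5, 0.000852 for Glra3, 0.00467 for Slc6a9, 0.00969 for Gabrq, 0.0117 for Gphn and 0.0248 for Gabrg3. The value of Gabra6 rested on the libraries with cerebellar RNA or of entorhinal mouse 52 (adjusted p = 0.42 without them), and the other 7 passed without them. In males alone none of these 7 passed, with adjusted p by the same test from 0.0563 for Glra1 to 0.77 for Slc6a9. Gabrg3 also did not pass with mice 16 to 56, a subset without the oldest mice (adjusted p = 0.154). The F test was not run without only the medulla libraries of mice 48 to 59. In those libraries Slc6a5 had a median of 172 CPM against 107 in the other medulla libraries, and Slc6a9 one of 164 against 230.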

How the results depend on the processing

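Counts of calls that moved by over 1.5 times were these. The 10 rising pairs became 5 in males alone and 18 with the neuron markers as a covariate, and the 27 falling pairs became 17 in males alone and 16 with mice 16 to 56. Of the 37 calls of slope, 20 were lost in males alone, 15 with mice 16 to 56 and 11 with the neuron markers. With the neuron markers 2 more changed sign and were not called. With no filter 6 were lost, with depth covariates 5, in DESeq2 4 and with RLE factors 2. All 12-month mice and all mice beyond 21 months carry numbers outside 16 to 56, so mouse number is linked to age. That subset therefore holds fewer ages over a narrower span. Whether the 15 calls were lost through mouse number or through the fewer mice and ages was not tested. Over the later ages, the 62 lower calls became 34 in males alone. With no minimum fold, 192 pairs were higher and 195 lower between regions, in place of 74 and 82. In males alone 2 members (Gabra6 and Gabrb2, the latter not called with all mice) and 4 pairs differed in slope between regions, in place of 8 and 8. The 16 pairs by sex became 7 without the medulla libraries of mice 48 to 59 and 0 with the 12-month mice alone. The slopes of Gabra2 and Gabrb1 in choroid plexus changed sign with the neuron markers, to 0.000589 and 0.00176, and were not called (adjusted p = 0.969 and 0.723). With the 12-month mice alone 3 sex differences changed sign and were not called. They were Gabbr2 in choroid plexus (-0.0245, adjusted p = 0.92) and medulla (0.25, adjusted p = 0.797), and Gabrb1 in hypothalamus (-0.0033, adjusted p = 0.992). Gabbr2 in medulla also changed sign without mice 48 to 59 (0.047, adjusted p = 0.865). The causes were not tested. Leaving out single mice gave 8 to 12 rising and 18 to 28 falling pairs, 31 to 40 higher and 51 to 63 lower calls at later ages, and 15 to 23 pairs by sex. With the mouse number as a replicate block, 74 pairs were higher and 81 lower between regions and 8 members differed in slope, and the block changed none of the 28 members' named regional differences; the contrasts of 1 region's slope were not fitted with it. Only 3 mice at 28 months, no females beyond 21 months and low levels limit what these tests can detect.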

Other observations

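In entorhinal cortex, 4 libraries (mice 7, 15, 23 and 39) had Gad1 at 78.0 to 102 CPM, against 292 to 626 in the other 47 (median 385). Abat was at 80.4 to 118 CPM in the 4 against 190 to 592. Gad2 was at 69.2 CPM in mouse 39 and at 171 to 179 in the other 3, against 116 to 364 (median 155). Snap25, a neuron marker, was at 1210 CPM in mouse 39, below the 2340 to 3220 of the 47, and at 2838 to 3043 in the other 3. Gabra2 was at 114 to 223 CPM in them, within the range of the others.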
